A study of Rattus norvegicus with 89 samples.

Results

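The genes described here are the cytochrome P450 genes read by the arrays in rat kidney. They were taken by name, as probe sets with a single gene symbol that begins with Cyp and a digit, and Cyp51 was left out. This gave 64 probe sets for 57 genes, among 14217 named genes on the array. A gene counted as well measured when its signal exceeded 33.2, the 40th percentile of all values, in at least 5 arrays. This held for 38 of the 57 P450 genes and for 11415 genes in all.

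Cytochrome P450 enzymes are haem proteins that insert an oxygen atom into their substrates, using electrons passed on by a reductase. In the microsomes that reductase is Por. Some P450s oxidize drugs and other foreign compounds, and others make or break down fatty acid derivatives, vitamin D, steroids, bile acids and retinoic acid. In the kidney the proximal tubule is rich in P450s of the Cyp4a and Cyp2c families, which turn arachidonic acid into mediators of vessel tone and salt transport. In rats many P450 genes of the liver are expressed in a sex-dependent way, under the control of the pattern of growth hormone release and of sex steroids.

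The animals were Sprague-Dawley Crl:CD(SD) rats of both sexes, aged about 7 to 8 weeks at the start, and each gave 1 array of RNA pooled from the apical parts of its left and right kidneys. There were 89 rats, 44 males and 45 females. Saline, gentamicin, tobramycin, cisplatin, cadmium, doxorubicin or valproic acid was given for 1 day or for 5 days, and naive rats formed a further control group. Gentamicin and tobramycin are aminoglycoside antibiotics, cisplatin and doxorubicin are cancer drugs, cadmium is a toxic metal and valproic acid is an anticonvulsant. Of the 15 groups, saline at day 1 had 7 rats, saline and doxorubicin at day 5 had 5 each, and the others had 6. All groups shared that strain and age, and the doses are not stated in the labels. Signals below are array intensities scaled to a common mean, and log2 differences are of the signal plus 16. A signal belongs to its own probe set, so levels were compared between rats and never between genes.

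Kidney identity was read from marker genes. All 8 proximal tubule markers, 3 of 3 for the loop of Henle and 4 of 4 for the collecting duct exceeded 33.2 in every array. Hepatocyte markers were not absent. Albumin (Alb) ranged from 0.80 to 3819 between rats and exceeded 33.2 in 42 of 89. It exceeded 300 in 22 of the 43 rats of the day 1 groups, in 5 of the 40 rats of the day 5 groups and in 0 of 6 naive rats. Of 5 adrenal cortex markers on the array, Star and Cyp11b1 exceeded 33.2 in no array, Cyp11a1 in 2, Cyp21a1 in 4 and Hsd3b1 in 45, where it reached 219.8. The whole kidney was not sampled by cell, so fewer cells of a type and less RNA per cell cannot be told apart.

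Sequence from 6 of these genes is given first, chosen from the genes named in the sex, liver-type and treatment results. RefSeq lists a promoter for 45 of the 57 genes on the GRCr8 assembly, and the 250 bases before the listed start are printed 5′ to 3′. Capitals mark matches to any of 5 short motifs: the xenobiotic response core GCGTG, the nuclear receptor core AGGTCA, the STAT5 site TTCNNNGAA and the HNF1 core GTTAAT, each on both strands, and the TATA box TATAAA on the strand of the gene.
Cyp2c11 (chr1:246174966-246175215, plus strand): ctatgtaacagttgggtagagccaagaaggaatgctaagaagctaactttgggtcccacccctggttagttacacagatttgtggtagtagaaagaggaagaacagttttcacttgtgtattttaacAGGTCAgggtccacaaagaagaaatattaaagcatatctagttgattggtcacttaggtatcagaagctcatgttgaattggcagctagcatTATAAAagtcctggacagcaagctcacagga
Cyp2c7 (chr1:247966144-247966393, plus strand): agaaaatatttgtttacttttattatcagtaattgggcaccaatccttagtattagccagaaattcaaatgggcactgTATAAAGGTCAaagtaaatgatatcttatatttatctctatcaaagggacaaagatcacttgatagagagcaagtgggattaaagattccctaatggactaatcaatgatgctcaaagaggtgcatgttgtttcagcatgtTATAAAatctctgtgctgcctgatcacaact
Cyp2c12 (chr1:248677035-248677284, minus strand): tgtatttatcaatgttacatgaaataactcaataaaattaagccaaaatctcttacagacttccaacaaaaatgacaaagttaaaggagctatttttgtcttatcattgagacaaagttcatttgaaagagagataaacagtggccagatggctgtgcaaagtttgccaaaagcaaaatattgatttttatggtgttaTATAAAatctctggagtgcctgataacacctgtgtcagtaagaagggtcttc
Cyp2c13 (chr1:248787189-248787438, minus strand): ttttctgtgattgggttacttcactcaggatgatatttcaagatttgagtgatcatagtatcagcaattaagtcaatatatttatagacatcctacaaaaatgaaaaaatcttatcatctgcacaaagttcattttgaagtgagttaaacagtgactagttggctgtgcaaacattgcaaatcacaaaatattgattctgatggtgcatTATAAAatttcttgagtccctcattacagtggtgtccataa
Cyp3a2 (chr12:14343858-14344107, minus strand): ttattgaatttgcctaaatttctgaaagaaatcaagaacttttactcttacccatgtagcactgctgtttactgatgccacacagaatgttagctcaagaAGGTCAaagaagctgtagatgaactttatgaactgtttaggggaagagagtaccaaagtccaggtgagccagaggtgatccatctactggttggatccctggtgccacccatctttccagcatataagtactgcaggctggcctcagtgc
Cyp26b1 (chr4:118616177-118616426, minus strand): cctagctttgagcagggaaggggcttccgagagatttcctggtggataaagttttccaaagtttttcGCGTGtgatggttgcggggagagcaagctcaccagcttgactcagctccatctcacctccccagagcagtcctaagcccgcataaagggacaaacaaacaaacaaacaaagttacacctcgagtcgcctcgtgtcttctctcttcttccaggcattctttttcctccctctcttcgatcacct

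All 4 Cyp2c promoters held a TATAAA match, and its first base lay 31 bases before the start in Cyp2c11 (position -31), at -52 in Cyp2c12 and at -41 in Cyp2c13. Cyp2c7 had 2 matches, at -172 and -31, and the distal one overlaps an AGGTCA match by 1 base on the printed strand. The same letters were in 24.4% of the 45 P450 promoters and in 8.06% of 33469 promoters of the same length. AGGTCA was in 35.6% of P450 promoters and in 14.1% of all, and among the 6 printed here it was in Cyp2c11, Cyp2c7 and Cyp3a2. The shares for GCGTG were 22.2% and 25.9%, for TTCNNNGAA 8.89% and 7.67%, and for GTTAAT 8.89% and 6.45%. Cyp26b1 held GCGTG at -183 and no other match. The listed promoters of Cyp4b1 and Cyp2d4, which belong to the sex results but are not printed, held no match to any of these motifs. The printed Cyp2c12 stretch lies within the span listed for its gene, chr1:248619887-248681945. Those of Cyp2c7, Cyp2c13 and Cyp3a2 run partly into the spans of their genes. The listed starts of these genes are therefore not the outermost ones. These are matches of letters only. Cyp2c11, Cyp2c6v1, Cyp2c7, Cyp2c12 and Cyp2c13 lie in this order along chromosome 1 of that assembly.

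By role, the fatty acid and arachidonic acid group had 14 of 15 genes well measured and 10 of them over 33.2 in all 89 arrays. Cyp2c23, the main arachidonic acid epoxygenase of rat kidney, ran from 2964 to 6421 with a median of 4719. Cyp4a1, Cyp4a3 and Cyp4a8, fatty acid omega-hydroxylases, had medians of 1382, 4562 and 3628, and Cyp4f1 a median of 2477. Of 26 genes for foreign compound oxidation, 16 were well measured, and Cyp2d2, Cyp2d4, Cyp2e1 and Cyp2t1 exceeded 33.2 in every array. Cyp2e1, which oxidizes ethanol and other small molecules, had a median of 2358. None of the 5 genes of steroid hormone synthesis (Cyp11a1, Cyp11b1, Cyp17a1, Cyp19a1 and Cyp21a1) was well measured. Cyp27b1, which makes active vitamin D in the proximal tubule, exceeded 33.2 in only 6 arrays.

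Of the 19 genes that were not well measured, 11 exceeded 33.2 in no array and 8 in 1 to 4 arrays. Beside the 5 of steroid synthesis they were Cyp1a2, Cyp2a1, Cyp2a2, Cyp2a3, Cyp2b12, Cyp2b21, Cyp2c22, Cyp2g1, Cyp3a9, Cyp3a18, Cyp4f4, Cyp7a1, Cyp7b1 and Cyp46a1. Just inside the limit were Cyp27b1 and Cyp2c13, with 6 arrays each, and just outside were Cyp21a1 and Cyp2a2, with 4 each. A further 7 probe sets that name several P450 genes were not used.

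The P450 genes differed most between the sexes. Cyp2c11, the male-specific steroid 16-alpha and 2-alpha hydroxylase of rat liver, ran from 111.9 to 1795 in males with a median of 813, and from 0.91 to 24.1 in females with a median of 13.2. Every male lay above every female, and no female exceeded 33.2. Set against that limit, the mean of the male log2 values was at least 21.3-fold higher, and the fitted difference was 4.72 (SE 0.15). That fitted size rests on female signals under the limit. Cyp2c11 passed the filter on signal only through males, so no p-value is given for it.

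Cyp4b1, a fatty acid and foreign compound hydroxylase, went the other way. Females ran from 665 to 3080 with a median of 1492, and males from 150.6 to 299 with a median of 226. Again no values overlapped, and the female level was 6.2-fold the male level (log2 difference -2.63, SE 0.08; limma, adjusted p = 8.92e-46). Cyp2d4, a brain and kidney member of the Cyp2d family, ran from 228 to 465 in males and from 82.6 to 200.1 in females, 2.46-fold apart without overlap. Only these 3 of 38 P450 genes (7.89%) did not overlap between the sexes, beside 1.37% of all genes tested. Cyp2c11 is among the 3 although it entered the test only through males.

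**Figure D1:**
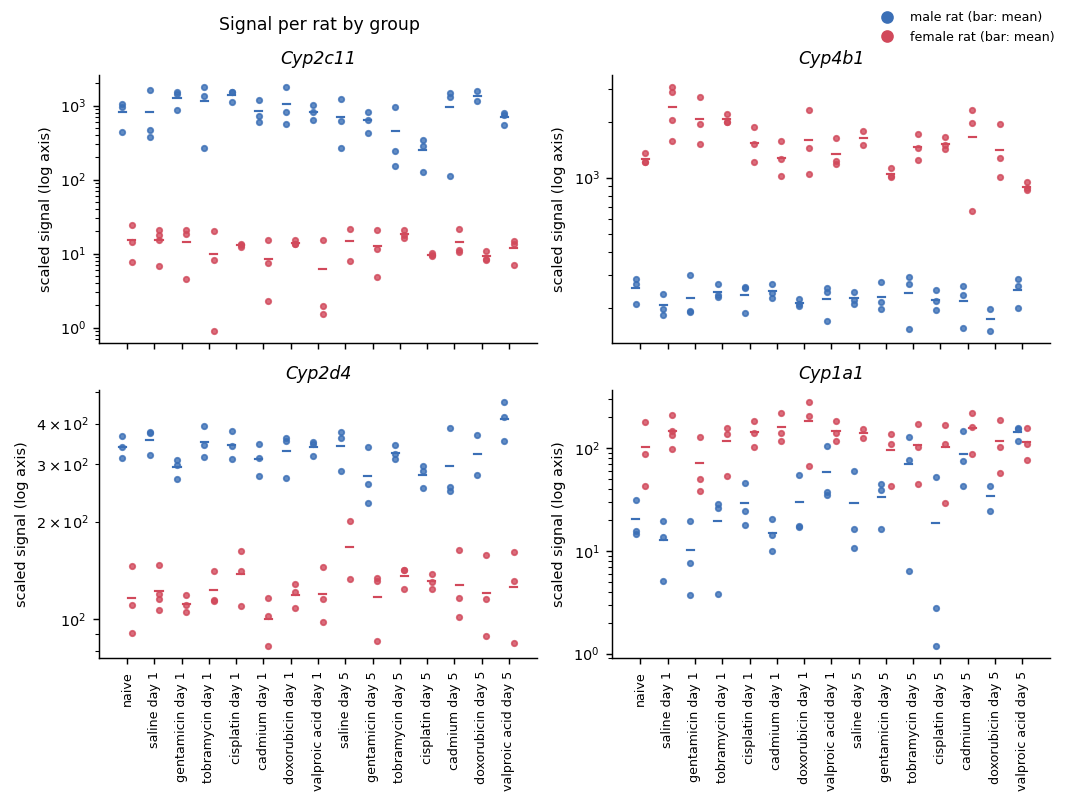
Scaled signal of Cyp2c11, Cyp4b1, Cyp2d4 and Cyp1a1 for each rat on a log axis, by group, with males in blue and females in red and bars at the means. The sexes do not overlap for Cyp2c11, Cyp4b1 and Cyp2d4, while for Cyp1a1 the 3 males given valproic acid to day 5 lie among the females, between 117.1 and 157.3.

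Cyp1a1, an aryl hydrocarbon receptor target that oxidizes polycyclic compounds, was higher in females by a log2 difference of 1.51 (male minus female -1.51, SE 0.15; adjusted p = 2.72e-14), with medians of 127 in females and 24.5 in males. The direction held in 14 of 15 groups. Further genes higher in males were Cyp8b1, a sterol 12-alpha hydroxylase, by 1.17 on the log2 scale, Cyp2d2 by 0.97, the arachidonic acid epoxygenase Cyp2j4 by 0.70, Cyp2d3 by 0.67, Cyp4a3 by 0.55 and Cyp2f4 by 0.32. Genes higher in females included Cyp20a1, the retinoic acid hydroxylase Cyp26a1, Cyp4v3, the sterol 27-hydroxylase Cyp27a1, Cyp2s1, Cyp26b1 and Cyp2u1, with male minus female differences of -0.58, -0.51, -0.50, -0.40, -0.28, -0.27 and -0.14. Cyp2d3 exceeded 33.2 in 22 males and 2 females, Cyp2f4 in 9 males and 2 females, and Cyp26a1 in 1 male and 29 females. These genes entered the test mainly through the sex where they were higher, and their sizes rest in part on signals under the limit. The Cyp2u1 call was lost with quantile normalization (adjusted p = 0.15) and without scaling (0.48), and the Cyp26b1 call without scaling (0.11). Cyp3a2, Cyp2c13 and Cyp2c12 also passed, but only 1 sex ever exceeded 33.2: 12 males for Cyp3a2, 6 males for Cyp2c13 and 10 females for Cyp2c12. They entered the test through that sex, and no size is given for them. In total 13 P450 genes were higher in males and 10 in females, and 15 did not pass. These counts include Cyp2c11, Cyp3a2, Cyp2c13 and Cyp2c12, each over 33.2 in only 1 sex.

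The share of P450 genes called, 60.5%, lies near the share of all genes called, 64.3%. The size of the differences is another measure: the median absolute log2 difference was 0.27 for P450 genes and 0.14 for all genes, and 13.2% of P450 genes and 2.14% of all genes differed by more than 1. In the 18 control rats alone, 14 P450 genes were called beside 23.6% of all genes, and Cyp2c11, Cyp4b1, Cyp2d4 and Cyp1a1 were 4.50, -2.84, 1.32 and -2.03. The sign of Cyp26b1 turned there (0.06), as did that of Cyp2c23 (-0.04 against 0.14 in all rats). The 3′ to 5′ signal ratio of the beta-actin control probe sets, a sign of RNA integrity, had a median of 3.20 in males and 3.76 in females, with ranges of 2.39 to 5.58 and 2.56 to 10.5. Markers of several cell types also differed by sex. Of 8 proximal tubule markers, Slc22a6 (0.95), Aqp1 (0.42), Miox (0.30) and Slc34a1 (0.22) were higher in males and Cubn (-0.83) in females. Higher in females were 4 of 4 measured adipocyte markers (median male minus female -1.02), 4 of 4 of the collecting duct (-0.22) and 2 of 2 of podocytes (-0.30). Of 4 markers of the straight proximal tubule, the transporters Slc22a7 (-2.78) and Slc22a13 (-2.57) were higher in females and Slc7a13 (0.09) in males. Hsd3b1, the 1 measured adrenal cortex marker, was higher in males by 1.84. The part of RNA integrity and of these cell types in the sex differences was not tested.

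**Figure D2:**
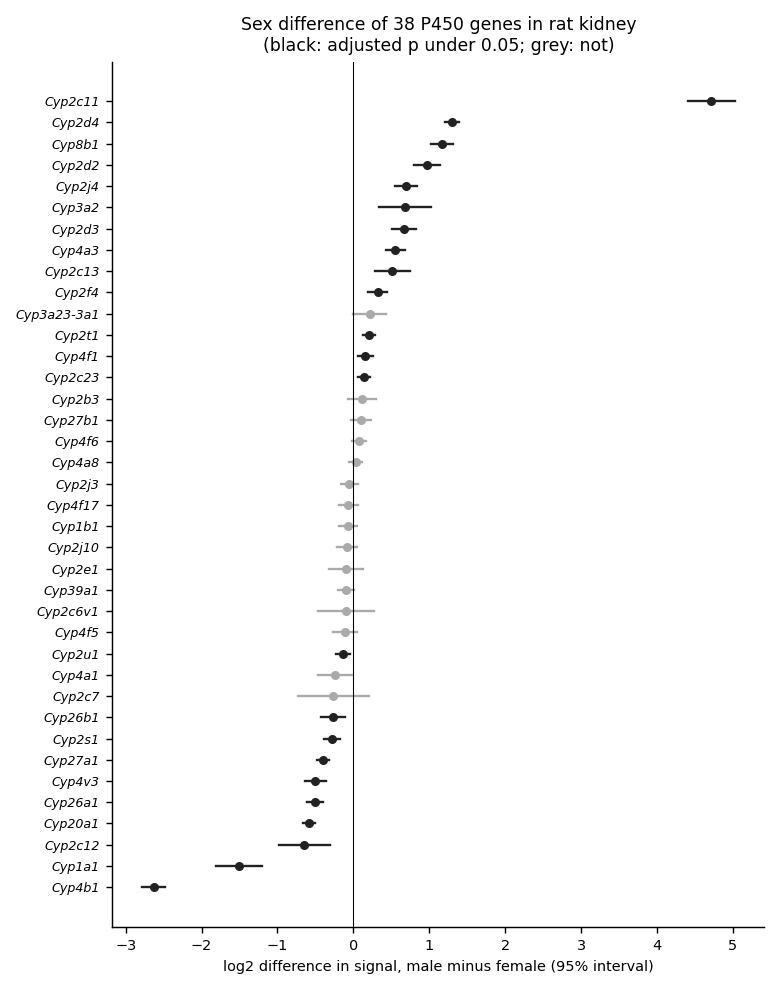
Male minus female log2 difference of each of the 38 well measured P450 genes over 89 rats, with points at the limma estimate and lines for 95% intervals. Black genes passed an adjusted p of 0.05 and grey genes did not, and Cyp2c11 (4.72) and Cyp4b1 (-2.63) lie farthest out.

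Genes that work with the P450s were read in the same sex test, in which 64.3% of all genes passed, 2726 higher in males and 4609 in females. Of 8 measured genes for electron transfer and haem supply, 7 were higher in males and 0 in females, among them Por at 1.47-fold, the haem protein partner Pgrmc1 at 1.34-fold, Cyb5a at 1.27-fold and the mitochondrial electron carrier Fdx1 at 1.26-fold. Their median difference was 0.32, beside -0.05 for all genes. Of 9 measured regulators, the liver and kidney factor Hnf4a (1.29-fold), the growth hormone receptor Ghr (1.33-fold), Vdr (1.29-fold) and Arnt were higher in males and Ahr was higher in females. Of 7 genes of neighbouring steps, Ephx1 and Ugt2b7 were higher in males, and Hsd11b2, Hsd17b2 and Ptgs1 in females. Of 11 genes of the vitamin D and phosphate axis, S100g, Slc34a1 and Vdr were higher in males and Cubn in females. No gene of these 4 lists passed in any of the 12 treatment comparisons.

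A second pattern followed albumin. A hepatocyte score, the mean log2 value of Alb, Apoa1, Ttr, Serpina1, Apoc3 and Fgb, contains no P450 gene. Its members were not alike. Apoc3 exceeded 33.2 in all 89 arrays, and its slope on the score did not pass within males or within females (limma, adjusted p = 0.46 and 0.45). Fgb differed among the 15 groups (F test, adjusted p = 0.00023). Apoc3 was higher in males (0.58), and Ttr (-0.51) and Fgb (-0.88) were higher in females. With group and sex in the fit, 8 of 38 P450 genes rose with it (limma, adjusted p) and 0 fell, beside 0.552% of all genes that rose. These were Cyp2c6v1, Cyp2c7, Cyp2c12, Cyp2c13, Cyp2b3, Cyp2d3, Cyp3a2 and Cyp3a23-3a1, all foreign compound or steroid hydroxylases best known from liver. All but Cyp2d3 stayed under 33.2 in every rat with Alb up to 100. Those genes passed the filter on signal only through rats with more albumin. Their rise therefore follows in part from the filter, and the count of 8 is not independent of it. Cyp2c7 rose by 1.22 (SE 0.06) for each unit of the score and Cyp2c6v1 by 0.99 (SE 0.05). Cyp2e1, also abundant in liver, did not pass (slope 0.12, adjusted p = 0.58).

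The rats with the most albumin show the pattern in single values. In male 2M11 (gentamicin, day 1) Alb was 3819, Cyp2c7 384, Cyp3a2 187, Cyp2c13 133.2 and Cyp2c12 15.96. In female 6F148 (doxorubicin, day 1) Alb was 3579, Cyp2c7 1043, Cyp2c12 445, Cyp2c13 1.66 and Cyp3a2 0.34. Both rats thus had high Cyp2c7, while Cyp3a2 and Cyp2c13 were high in the male and Cyp2c12 in the female.

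Over all rats with Alb above 1000, Cyp3a2 ran from 39.4 to 187 in 8 males and from 0.34 to 5.05 in 4 females, and Cyp2c12 from 98.9 to 445 in those females and from 4.67 to 20.7 in the males. In rats with Alb up to 100, Cyp3a2 reached 2.51 in 28 males and 6.87 in 25 females, and Cyp2c12 reached 10.2 and 10.7. The sexes overlapped there for both genes. Cyp2c11 did not follow this pattern: in males it was 287 to 1527 with Alb above 1000 and 111.9 to 1769 with Alb up to 100.

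The slope on the hepatocyte score differed by sex for 5 P450 genes, beside 0.0964% of all genes. It was higher in females for Cyp2c7 (male minus female -0.71) and Cyp2c6v1 (-0.43), which exceeded the limit on signal in rats of both sexes. It was also higher in males for Cyp3a2 and Cyp2c13 and in females for Cyp2c12. Cyp3a2 and Cyp2c13 exceeded that limit only in males, and Cyp2c12 only in females. They entered the test through that sex, so no size or p-value is given for their slope differences. The count of 5 includes them and is not independent of the filter. Fitted within males, 7 P450 genes rose, beside 0.438% of all genes, and within females 5 rose, beside 0.324%. These counts also depend on the filter, through which most of these genes entered by rats with more albumin. Without the 27 rats over 300 in Alb the sex differences of Cyp2c12, Cyp2c13 and Cyp3a2 no longer passed (adjusted p = 0.12, 0.27 and 0.64), and that of Cyp3a2 turned sign.

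**Figure D3:**
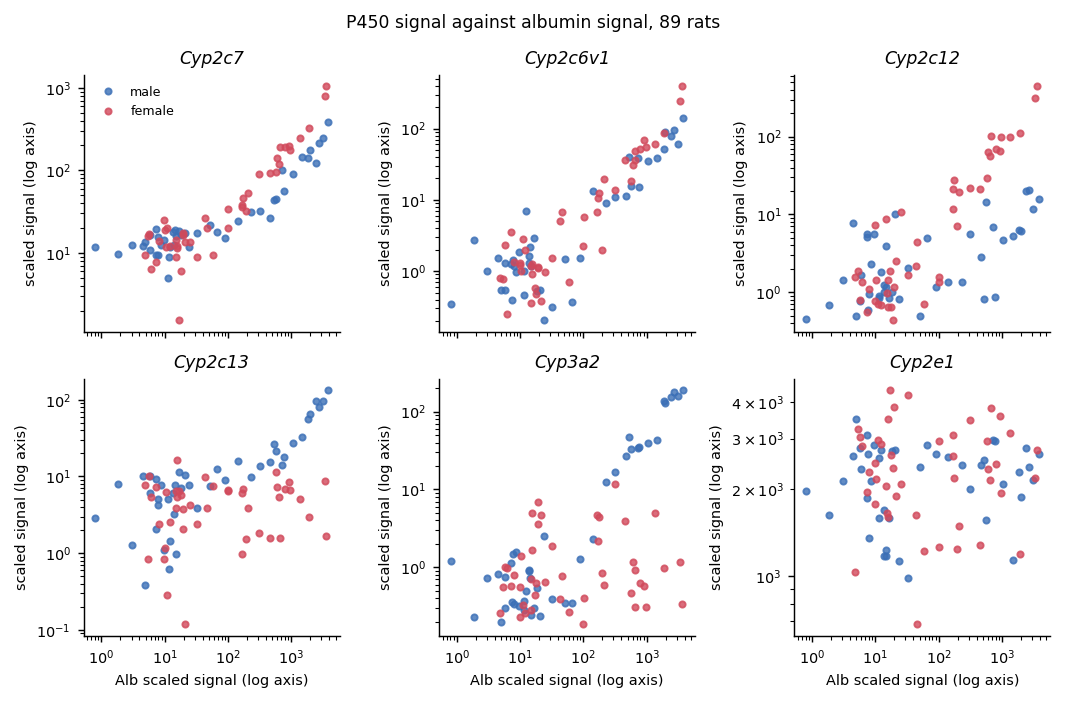
Scaled signal of 6 P450 genes against that of Alb in 89 rats, both on log axes, with males in blue and females in red. Cyp2c7 and Cyp2c6v1 rise with Alb in both sexes, Cyp2c13 and Cyp3a2 rise in males, Cyp2c12 reaches 445 in females and 20.7 in males, and Cyp2e1 shows no such rise.

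An F test across the 15 groups called 5 P450 genes, beside 4.46% of all genes. They were Cyp26b1 (adjusted p = 0.0147), Cyp8b1 (0.0357), Cyp2c6v1, Cyp2c7 and Cyp2c12. The 3 Cyp2c genes passed the filter on signal only through rats with more albumin, so no p-value is given for them. The count of 5 includes them and is not independent of the filter. Cyp2c7 had its highest medians in gentamicin at day 1 (188), saline at day 1 (143) and doxorubicin at day 1 (81.3), and its median was 10.6 in naive rats. Alb had medians of 1407, 968 and 605 in the same 3 day 1 groups and of 16.4 in naive rats. With the hepatocyte score as a covariate, Cyp26b1 and Cyp8b1 passed and the 3 Cyp2c genes did not. Without the rats over 300 in Alb, 0 of 38 P450 genes were called, and with single rats left out the count ran from 1 to 6.

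Cyp26b1, which clears retinoic acid, was the P450 gene with a change after treatment. At day 5 of doxorubicin its signals were 102.1, 103.4, 141.3, 143.6 and 159.8, against 202, 219, 235, 246 and 330 with saline at day 5. All 5 treated rats lay below all 5 saline rats. The means were 130.04 ± 25.9 (SD, n = 5) and 246 ± 49.5 (SD, n = 5), a log2 difference of -0.91 (SE 0.13; limma, adjusted p = 0.0144) or 0.531-fold. It was the only P450 gene called, beside 0.114% of all genes. The call ended when all 89 arrays were fitted together (adjusted p = 0.0879, beside 0.377% of all genes called), without the rats over 300 in Alb (0.0757), and on leaving out saline rat 1M4 (0.0589) or doxorubicin rat 6M49 (0.0917) or 6M50 (0.102), while the difference stayed between -0.83 and -1.05 over the left-out rats. A second Cyp26b1 probe set, over 33.2 in only 5 arrays, differed by -0.23. The highest saline value was that of 1F106, whose beta-actin 3′ to 5′ ratio was 10.5. In the other rats of both groups that ratio ran from 2.41 to 5.53. The part of RNA integrity in this difference was not tested.

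At day 1 the same drug gave values of 138.1 to 270.2, with a mean of 228 ± 48.9 (SD, n = 6), against 97.2 to 201 with saline, a mean of 146.3 ± 33.3 (SD, n = 7). These overlapped, and the difference of 0.59 did not pass (adjusted p = 0.32). The day 5 change minus the day 1 change was -1.47 (SE 0.23; adjusted p = 0.00325), and Cyp26b1 was again the only P450 gene, beside 0.0613% of all genes. That call held for each rat left out. It ended without the rats over 300 in Alb and on unscaled values. The saline groups themselves differed for Cyp26b1 by 0.68 between day 5 and day 1 without passing (adjusted p = 0.80). Red cell transcripts moved in the same rats: Hbb and Alas2 were lower by 5.88 and 2.74 on the log2 scale at day 5 of doxorubicin, as was the antigen presentation gene Cd74 by 1.01. Their part in the Cyp26b1 result was not tested.

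Valproic acid at day 5 gave Cyp26b1 signals of 62.7, 95.2, 122.2, 130.2, 141.4 and 183.4, all below the 5 saline rats. The difference was -0.999 (SE 0.18) and missed the limit on the arrays of both groups (adjusted p = 0.17, 0% of all genes called). It passed when all 89 arrays were fitted together (-0.99, adjusted p = 0.0487, beside 0.149% of all genes). Every one of the 6 rats of gentamicin at day 5 also lay below the saline mean for its own sex at day 5, with a difference of -0.54 that did not pass (adjusted p = 0.58). So did 5 of 6 rats with cisplatin, 4 of 6 with cadmium and 4 of 6 with tobramycin at day 5. All 6 gentamicin rats of day 1 likewise lay below saline at day 1.

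**Figure D4:**
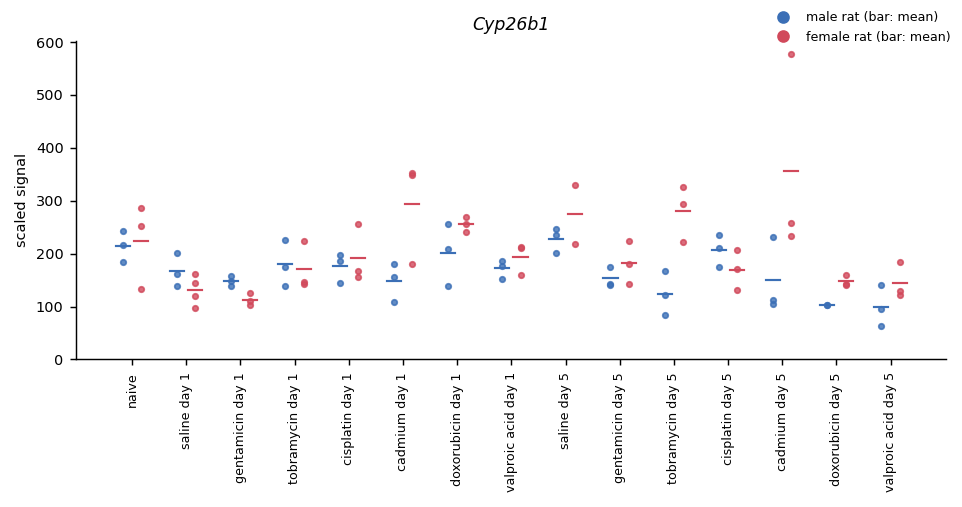
Scaled signal of Cyp26b1 for each rat by group, with males in blue, females in red and bars at the means. Saline at day 5 lies between 202 and 330, doxorubicin at day 5 between 102.1 and 159.8 and valproic acid at day 5 between 62.7 and 183.4.

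In the other treatment comparisons with saline of the same day no P450 gene passed. The background was 0.0613% of all genes for tobramycin at day 1, 0.00876% for cisplatin at day 5, 0.0263% for cadmium at day 1, 0.0438% for doxorubicin at day 1, 0.0788% for valproic acid at day 1 and 0% for gentamicin on both days and for cisplatin at day 1, tobramycin at day 5 and cadmium at day 5. At an unadjusted p under 0.05 the 12 comparisons held 2 to 6 P450 genes each, or 5.26 to 15.8%, beside 3.504 to 9.62% of all genes. At day 1 Cyp2c7 had the largest difference with tobramycin (-1.13), cisplatin (-1.38), cadmium (-1.01) and valproic acid (-0.84), and Cyp2c6v1 followed in the first 3 (-0.94, -1.04 and -0.76). Alb medians were 19.5, 93.7, 180.8 and 236 in those groups and 968 with saline at day 1. The part of hepatocyte transcripts in these differences was not tested beyond the covariate. No P450 gene passed with the covariate, but none had passed without it, so this count cannot decide that part.

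Cyp8b1 was highest with doxorubicin at day 1. Its signals were 28.6, 67.4 and 84.8 in females and 87.7, 95.3 and 120 in males, against 16.8 to 33.7 in 4 saline females and 37.97 to 70.5 in 3 saline males. Within males the groups did not overlap, and within females 1 rat overlapped. The difference of 0.89 (SE 0.18) did not pass (adjusted p = 0.14, and 0.0534 with all 89 arrays fitted together). The high females, 6F147 and 6F148, had Alb of 3387 and 3579, and Cyp8b1 rose with the hepatocyte score in females (slope 0.35, adjusted p = 0.0246), while the males 6M47 and 6M48 had Alb of 14.5 and 32.6. With the score as a covariate the difference was 0.84 (adjusted p = 0.13). Cyp2c11 in the 3 males of cisplatin at day 5 was 126.5, 287 and 339, overlapping the 270, 622 and 1217 of saline males (difference -0.82 over both sexes, adjusted p = 0.61). Cyp4a1 had a difference of -0.84 with doxorubicin at day 5 (adjusted p = 0.46) and Cyp2j10 of -0.62 with gentamicin at day 1. For Cyp3a2 the differences with gentamicin and tobramycin at day 5 rest on saline male 1M5 (135.7, with Alb of 1854), the only rat of these groups above 33.2.

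The aminoglycosides gentamicin and tobramycin were compared directly at each day, over 38 P450 genes, and 0 genes of any kind passed (0%). At day 5 the differences of gentamicin minus tobramycin ran from -0.44 for Cyp2d3 to 0.44 for Cyp2e1, and the 95% interval lay within 1 log2 unit of zero for 36 of 38 genes. At day 1 they ran from -0.56 for Cyp2j10 to 1.55 for Cyp2c7, whose interval was -0.04 to 3.14, and the interval lay within 1 unit for 29 genes. At an unadjusted p under 0.05 there were 9 P450 genes at day 1 (23.7%, beside 7.24% of all genes) and 2 at day 5 (5.26%, beside 5.81%). Alb medians at day 1 were 1407 with gentamicin and 19.5 with tobramycin, and Cyp2c7 rose with the hepatocyte score. The part of hepatocyte transcripts in the day 1 differences was not tested beyond the covariate. Doses are not known, so matching of doses is not known either. Among controls no P450 gene passed between saline and naive rats at day 1 or day 5, or between the saline days (0% of all genes in each), and Cyp2c7 had the largest difference in all 3 (2.02, 0.76 and -1.20). Alb medians were 968 with saline at day 1, 10.4 with saline at day 5 and 16.4 in naive rats. The change at day 5 minus that at day 1 gave 0 P450 genes for the other 5 compounds (0% of all genes in each).

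Cyp2e1 differed between the sexes by an amount that depended on the group (F test of sex by group, adjusted p = 0.0193), the only P450 gene of 38, beside 0.149% of all genes. Its average sex difference was small (-0.09) and did not pass. In naive rats females had 2626, 3494 and 4409 and males 1592, 2356 and 2642. With tobramycin at day 5 the order was turned, with 1030, 1220 and 1267 in females and 2390, 2603 and 2744 in males, and no overlap. Valproic acid gave females 1284 to 1783 and males 2393 to 2778 at day 1, and females 1244 to 2304 and males 2594 to 3494 at day 5. With doxorubicin females were again higher, at 2834 to 4233 against 1175 and 1361 in 2 males at day 5. Leaving out male 6M49 of that group ended the call, as did the deposited values without scaling.

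Cyp4a8, an omega-hydroxylase of arachidonic acid, was lower with valproic acid at day 5 in females, in a result that rests on 1 saline rat. Their signals were 1840, 2064 and 2528, below the 3073 and 4839 of the saline females, while males had 3331, 3343 and 3987 against 2984 to 3212 with saline. The female change was 0.553-fold (log2 -0.85; limma, adjusted p = 0.00612, beside 0.0263% of all genes) and the male change 1.14-fold. The male minus female difference was 1.04 (SE 0.21; adjusted p = 0.0440), the only gene of all tested in that comparison (0.00876%). The second Cyp4a8 probe set differed by -1.42 in the females. This comparison is 1 of 12 examined by sex, without adjustment across them, and only 2 saline females stand behind it. Without 1F106 the female change was 0.693-fold and did not pass (adjusted p = 0.9999), and it also missed the limit without 7F158 (0.0723) or 7F159 (0.0972). The male minus female difference passed only without 1F105 or 7F160, of the 11 rats left out in turn. The beta-actin 3′ to 5′ ratio was 10.5 in 1F106 and 7.47 in 7F160, against 2.41 to 5.00 in the other rats of both groups, and its part in the result was not tested. In the same group Cyp1a1 in males was 117.1, 154.9 and 157.3 against 10.6, 16.5 and 59.9 with saline. These did not overlap, the difference did not pass (adjusted p = 0.0952), and 2 of the 3 saline males were under 33.2.

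**Figure D5:**
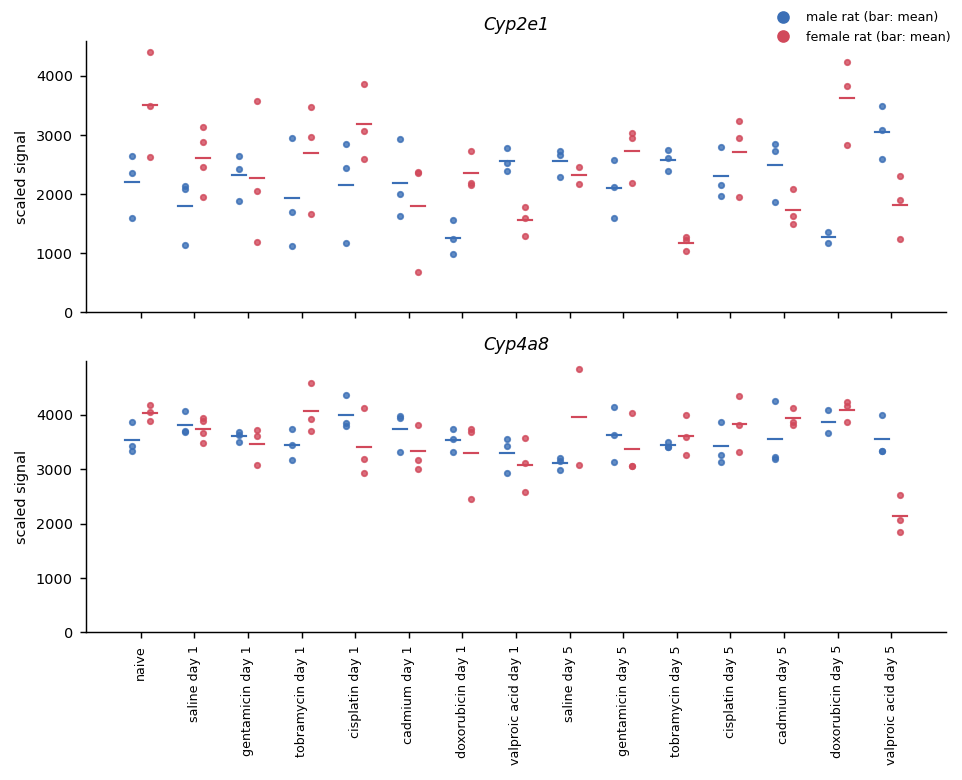
Scaled signal of Cyp2e1 and Cyp4a8 for each rat by group, with males in blue, females in red and bars at the means. Cyp2e1 in females of tobramycin at day 5 lies between 1030 and 1267, and Cyp4a8 in females of valproic acid at day 5 between 1840 and 2528.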

How the data were processed

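RNA of 89 rat kidneys was measured on 1-colour Affymetrix arrays, 1 array per rat. The deposited values are linear signal intensity per probe set (31099), made by the authors with MAS5 per the submitters' processing notes; its version and scaling were not stated there. The 2% trimmed mean of an array ran from 91.5 to 352, so arrays were scaled to a common 181 and taken as log2(signal + 16). Control probe sets (57), those with several symbols (436) and those with none (9780) were left out. Symbols were updated by Entrez ID for 20758 of 20826 probe sets, and each gene was read by its brightest probe set. The number of arrays limits the precision.

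Tests used limma 3.58.1 (trend, robust) in R 4.3.3, Benjamini-Hochberg adjusted over 11415 genes at 0.05: each treatment against saline of its day with sex as covariate, the controls, gentamicin against tobramycin, day 5 minus day 1, males against females, and F tests over groups and over sex by group. The tests were checked on simulated data. Nothing in the labels says that rats of a group were handled separately, so p-values measure the spread between these rats. Groups follow the sample titles; the treatment text of 5 arrays differs from the title or is absent. Other settings were a fit on all arrays, quantile and no scaling, a pseudocount of 64, no filter, every probe set, array brightness, 5 arrays left out, each rat left out, control rats only, and, chosen after seeing the data, the hepatocyte score leaving out rats over 300 in Alb, and leaving out single rats for Cyp4a8. The slopes on that score and the changes by sex were also fitted after seeing the data.

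Members, lists and tests were chosen with earlier results of these data known. Named were, for sex, the 10 largest on each side; for groups, up to 10 called; per comparison, those called, up to 8, and the 2 largest; 19 P450 genes of known kidney roles wherever measured; and up to 4 called genes per list (P450 partners, regulators, neighbouring steps, vitamin D and phosphate, cell type markers). Promoters came from RefSeq tables of GRCr8. Figures used matplotlib in Python.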

Additional observations from a re-analysis of the deposited data

Results flagged for a closer look

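For 7 genes that passed a test over groups or by sex, the sex-adjusted log2 values of each group were examined for a rat far from the others, as the gap to its nearest neighbour divided by the range of the group. This marked 13 gene and group combinations, where chance, at about 1 in 20, would mark 5.25. Several of the marked groups involve the same rats, and some marks rest on signals under 33.2.

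Cyp2c6v1 had 1 high rat in each of 5 groups, with gap ratios of 0.937 for 1M5 (saline, day 5), 0.893 for 6F149 (doxorubicin, day 5), 0.813 for 7M60 (valproic acid, day 5), 0.763 for 2F115 (gentamicin, day 5) and 0.706 for 5F141 (cadmium, day 5). Its signals were 51.3 in 1M5 and 48.8 in 6F149. In 7M60, 2F115 and 5F141 they were 13.2, 12.6 and 19.7, all under 33.2. Alb was 142.6, 174.8 and 208.9 in 7M60, 2F115 and 5F141, and what lies behind those marks was not tested. The same rats 1M5 and 6F149 were also high for Cyp2c7, with ratios of 0.795 and 0.73, and 6F149 for Cyp2c12, with a ratio of 0.777. Alb was 1854 in 1M5 and 660.5 in 6F149, the highest in their groups.

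Cyp8b1 was high in naive male 8M83 (ratio 0.761), and Cyp26b1 was low in naive female 8F183 (0.646). Cyp2e1 was low in male 3M21 of cisplatin at day 1 (0.646). Cyp4a8 was low in female 6F147 of doxorubicin at day 1 (0.668) and high in saline female 1F106 at day 5 (0.854), which is 1 of the 2 saline females behind the Cyp4a8 result with valproic acid.

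Effects that differed between groups by their own test were the sex difference of Cyp2e1 over the 15 groups (limma, adjusted p = 0.0193), the change of Cyp26b1 with doxorubicin at day 5 against day 1 (adjusted p = 0.00325) and the change of Cyp4a8 with valproic acid at day 5 in males against females (adjusted p = 0.0440). With single rats of these groups left out, the last of these still passed only without 1F105 or 7F160. It was farthest from passing without 1F106 (limma, adjusted p = 0.9992).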

How the results depend on the processing

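Counts are of P450 genes called among 38. With all 89 arrays fitted together, doxorubicin at day 5 went from 1 to 0 and valproic acid at day 5 from 0 to 1. On the deposited values without scaling, tobramycin at day 1 gave 1, cisplatin at day 1 gave 2, valproic acid at day 5 gave 1, saline at day 1 against naive gave 3, gentamicin against tobramycin at day 1 gave 1, the day difference of doxorubicin 0, the test over groups 2 (5 in the main setting) and that of sex by group 0. With array brightness as a covariate tobramycin at day 1 gave 1 and saline at day 1 against naive gave 3. Every probe set, and leaving out the 5 arrays of differing text, each gave 2 for sex by group, and the latter gave 0 for doxorubicin at day 5. Control rats alone gave 14 for sex, and there Cyp2c23 (-0.038) and Cyp26b1 (0.061) turned sign.

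In the settings chosen after seeing the data, Cyp4a8 with valproic acid at day 5 in females ran from -1.18 to -0.53 with single rats left out, and the hepatocyte score gave 2 over groups. Leaving out rats over 300 in Alb gave 0 over groups, 0 for doxorubicin at day 5 and 0 for its day difference. It turned Cyp3a2 to -0.027 between the sexes, on signals all under 33.2. That setting was not run for gentamicin or doxorubicin at day 1 or for sex by group.

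With each rat left out in turn, the counts ran from 0 to 1 for doxorubicin at day 1 (1 without 6F146) and at day 5 (0 without 1M4, 6M49 or 6M50), from 1 to 6 over groups, from 0 to 2 for sex by group, from 23 to 24 for sex, were 1 throughout for the day difference of doxorubicin and 0 for the other comparisons. Over groups the count was 1 without 2F112 or 6F147, 2 without 2M11 or 6F148, and 3 without 1F101, 1F102, 1F103, 2M12, 3M24, 6M50, 8F182 or 8F183. For sex by group it was 0 without 6M49 and 2 without 6F146, 1F105, 5M42 or 5F142. Of the log2 differences of single named genes under these settings, 2267 kept direction and side of the threshold, 21 lost the call, 2 gained it and 3 turned sign. The causes were not tested. No paired analysis was possible because no rat number recurs in a second group. Low signals limit Cyp27b1, Cyp2c13, Cyp2b3 and Cyp3a23-3a1, which exceeded 33.2 in 6 or 7 arrays.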
